A study of Homo sapiens with 6 samples.

Results

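Histone genes were followed by class in LNCaP, a human prostate cancer line that responds to androgen, treated for 48 h with DHT, a natural androgen, with or without an extract of white button mushroom (WBM). Members were all genes of the deposited table whose symbol begins with HIST1H to HIST4H, H2AF, H1F or H3F, which gave 85 of 23354 genes. They comprise 66 replication-dependent HIST genes, 14 replication-independent variant genes, 4 pseudogenes and the antisense RNA H1FX-AS1. The pseudogenes and the antisense RNA are described apart from both classes. The DHT+WBM group had 3 libraries from cells given DHT at 1 nM plus WBM extract at 3 µL/mL, and the DHT group had 3 libraries from cells given the same DHT alone. DHT was thus present in both groups, and the labels do not say whether the DHT group received a vehicle in place of the extract. Nothing in the labels tells if the 3 libraries of a group came from separate cultures. The p-values therefore reflect the spread among the libraries alone, and that spread may be technical.

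Histones package DNA into nucleosomes, built from the core histones H2A, H2B, H3 and H4, while the linker histone H1 binds the DNA between them. Replication-dependent HIST genes lie in clusters, lack introns and are transcribed mainly in S phase, and their mRNAs classically end in a conserved stem-loop bound by the stem-loop binding protein SLBP instead of a poly(A) tail. Replication-independent variants are made throughout the cell cycle from ordinary polyadenylated mRNAs and replace core or linker histones at particular sites. Some HIST genes are also known to give polyadenylated mRNAs that run past the stem-loop. The labels name total RNA and do not say whether poly(A) selection was used, which would recover mRNAs without a tail poorly, and how far this set the levels below was not tested.

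The stem-loop is shown here because it is the element by which replication-dependent histone mRNAs are known. A stem-loop pattern was searched on the transcript strand of GENCODE v29 transcripts (GRCh38). It asked for GG, any 2 bases and CT in the rising strand, TT inside the loop, and AG, any 2 bases and CC in the falling strand, and it occurred in 0.202% of 206694 transcripts. It was found in 27 of the 66 HIST genes. Another 32 HIST genes are annotated there by their coding sequence alone, so the 3′ end of these genes was not in view. Of the 14 variant genes, H2AFX was the one that held it. The pattern was not found in the annotated transcripts of other genes that carry results below. Among them are HIST1H1C, HIST1H2BK, HIST1H2BJ, HIST1H2BO, HIST2H2AC, HIST1H3D, HIST1H3E and HIST1H1E. Its absence there does not show that their mRNAs lack a stem-loop. Capitals mark the stem-loop and lower case the bases on either side, for some of the genes that held it and carry results below.
HIST2H2BE: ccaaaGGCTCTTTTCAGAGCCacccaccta
HIST1H2AC: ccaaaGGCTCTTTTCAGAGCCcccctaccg
HIST1H2AE: ccaaaGGCTCTTTTCAGAGCCacccacctt
HIST1H2BD: ccaaaGGCTCTTTTAAGAGCCacgcatgtt
HIST1H3H: ccaaaGGCTCTTTTCAGAGCCacccacatg
HIST1H4H: ccaaaGGCCCTTTTCAGGGCCgcccacttt
HIST1H4B: ccaatGGCCCTTTTCAGGGCCgcccactcc
H2AFX: acaaaGGCCCTTTTAAGGGCCaccaccgcc
In the 7 H4 genes with the motif the stem began GGCCC, and in the 20 H2A, H2B and H3 genes with it the stem began GGCTC. H2AFX carried the GGCCC form. For each gene a single transcript with the motif was kept, protein-coding ones before others and then the longest. These transcripts ran on for 1729 bases after the stem-loop in HIST2H2BE, 1114 in HIST1H2AC and 769 in HIST1H3H. The stretch was 630 bases in HIST1H4H, 1044 in H2AFX and 51 in HIST1H2AE. Shorter annotated transcripts of these genes were not compared.

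The libraries held 19127357 to 21490953 counts each. Genes were tested with edgeR's quasi-likelihood test across the whole table, where 13466 genes passed a filter on low counts, and a gene is called higher or lower in DHT+WBM where its Benjamini-Hochberg adjusted p was under 0.05. Luminal prostate markers were present, with KLK3 at 617 CPM (a count relative to its library's size, adjusted by TMM factors) in DHT+WBM and 1683 CPM in DHT, and KRT18 at 246 and 244 CPM. The basal marker KRT5 was at 0 in every library, and the leukocyte marker PTPRC was at 0.0325 CPM in DHT+WBM and 0.0163 CPM in DHT. Of 7 luminal markers KLK3, KLK2, TMPRSS2 and HOXB13 were lower in DHT+WBM, KRT8 was higher, and FOLH1 and KRT18 did not pass the test. Of 3 fibroblast markers, COL1A1 averaged 11.2 CPM in DHT+WBM and 10.5 CPM in DHT, COL3A1 was lower with a log2 fold change of -0.89, and DCN was under 0.1 CPM in each library. The part of these markers in the histone values was not tested. In bulk RNA, fewer cells in S phase and less histone mRNA per cell cannot be told apart.

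Variant genes were the more abundant class, with 9 of 14 at a mean of 5 CPM or more, while 9 of the 66 HIST genes reached that level. Summed over members, the 14 variant genes took 2029, 2022 and 2057 CPM in DHT+WBM libraries, against 2209, 2275 and 2290 CPM in DHT libraries. The 66 HIST genes took 667, 657 and 656 CPM in DHT+WBM libraries, against 697, 708 and 746 CPM in DHT libraries. Variant reads thus outnumbered HIST reads 3.08-fold in DHT+WBM and 3.15-fold in DHT. Both sums were lower in each DHT+WBM library than in any DHT library, by log2 ratios of -0.15 for variants and -0.12 for HIST genes. The mean HIST sum was 660 CPM in DHT+WBM and 717 CPM in DHT. HIST1H2BK alone was at 136 and 213 CPM, a larger drop than that of the sum. The summed level of the other HIST genes was thus not lower. They include HIST1H1C, at 184 and 154 CPM, and HIST2H2BE, at 202 and 185 CPM, which were both higher. Without these 3 genes the HIST sum was lower, at 139 CPM in DHT+WBM and 166 CPM in DHT. Scaled by library totals alone the log2 ratios of the variant and HIST sums were -0.10 and -0.07. Per kb of gene length the sums lay closer together, at 863 CPM per kb for variants and 714 for HIST genes in DHT+WBM, against 989.6 and 806 CPM per kb in DHT.

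**Figure D1:**
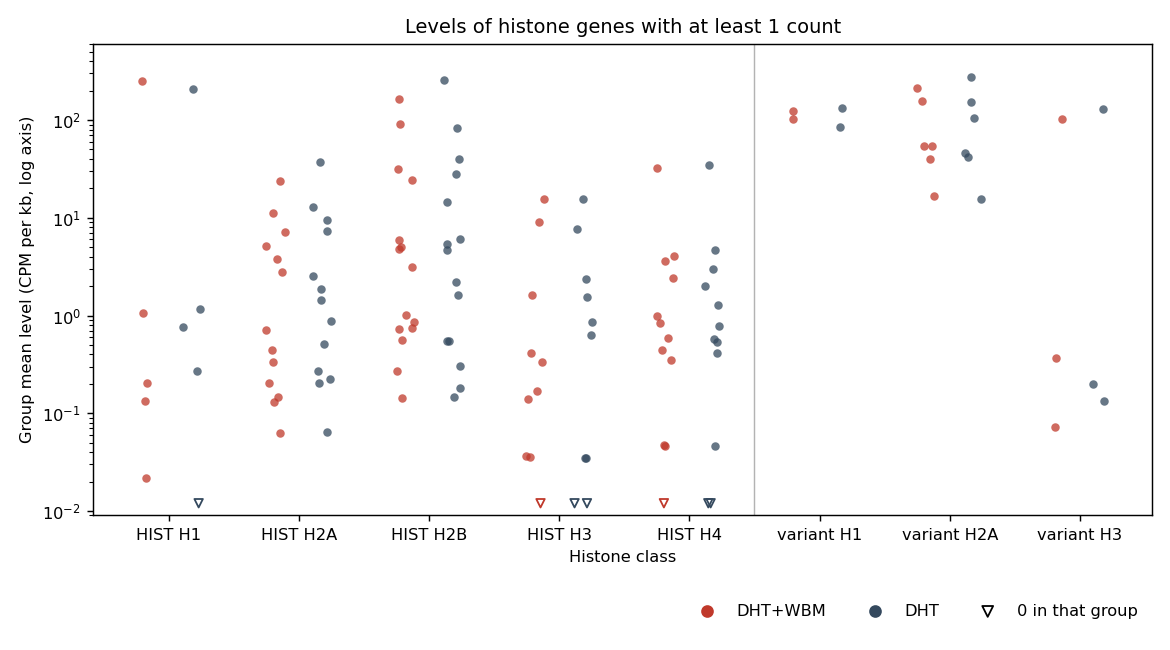
Group mean level of each histone gene with at least 1 count, in CPM per kb on a log axis, by histone class, with DHT+WBM points left of DHT points and open triangles for genes at 0 in that group. In each HIST class a few genes stand far above the rest, while the variant H1 and H2A genes with counts lie between 15.7 and 276 CPM per kb in DHT.

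Reads of the HIST class rested on few genes. HIST2H2BE, HIST1H2BK and HIST1H1C together took 77.9% of the HIST sum. Without these 3 genes the HIST sum was 139 ± 1.15 CPM in DHT+WBM and 166 ± 3.68 CPM in DHT (SD, n = 3). Of the 66 HIST genes, 11 had no count in any library, another 28 had counts but did not pass the filter, and 27 were tested. HIST2H2AA4, HIST2H3C and HIST2H4A were among those at 0, and the table gives each of them a span far longer than its gene length, as for duplicated copies joined in one entry. A count of 0 allows up to 3 counts, or 0.138 to 0.154 CPM, per library. Near-identical histone genes share reads that counting can lose or assign to another copy, so values of single members are uncertain.

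Among the tested HIST genes 12 were lower and 4 higher in DHT+WBM, and 11 did not pass the test. The 16 called members are 59.3% of the 27, beside 58.2% called among all 13466 tested genes, so the share called was near that of all genes. Lower calls made up 44.4% of the tested HIST genes, beside 29% of all tested genes, and higher calls 14.8%, beside 29.2%. The median log2 fold change of the 27 genes was -0.22, beside 0.00 over all tested genes. It was -0.36 without DHT+WBM replicate 1, and -0.19 under upper-quartile factors, where the median of all genes was 0.03. Among the 9 HIST genes of at least 5 CPM it was -0.20. The libraries of the groups did not overlap for 19 of the 27 genes (70.4%), beside 62.2% of all tested genes. Under DESeq2 6 of the HIST genes were lower, and at an adjusted p under 0.01 the number was also 6. The lower calls lost under DESeq2 were those of HIST1H2BC, HIST1H2BN, HIST1H3D, HIST2H2AC, HIST3H2A and HIST3H2BB. The higher call of HIST1H4B was lost there too. Of the 16 calls, 8 held under every setting in which the gene was tested: HIST1H1C, HIST1H2AC, HIST1H2AE, HIST1H2AG, HIST1H2BD, HIST1H2BJ, HIST1H2BK and HIST1H2BO. For variants 4 of the 9 tested genes were lower (44.4%, the same share as in HIST genes, beside 29% of all tested genes). Another 2 were higher (22.2%, beside 29.2%), so 66.7% were called, beside 58.2%. The groups did not overlap for 7 of the 9 (77.8%, beside 62.2%). The variant median log2 fold change was -0.06, or -0.0163 when scaled by library totals alone. Direction thus differed between single genes within both classes.

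**Figure D2:**
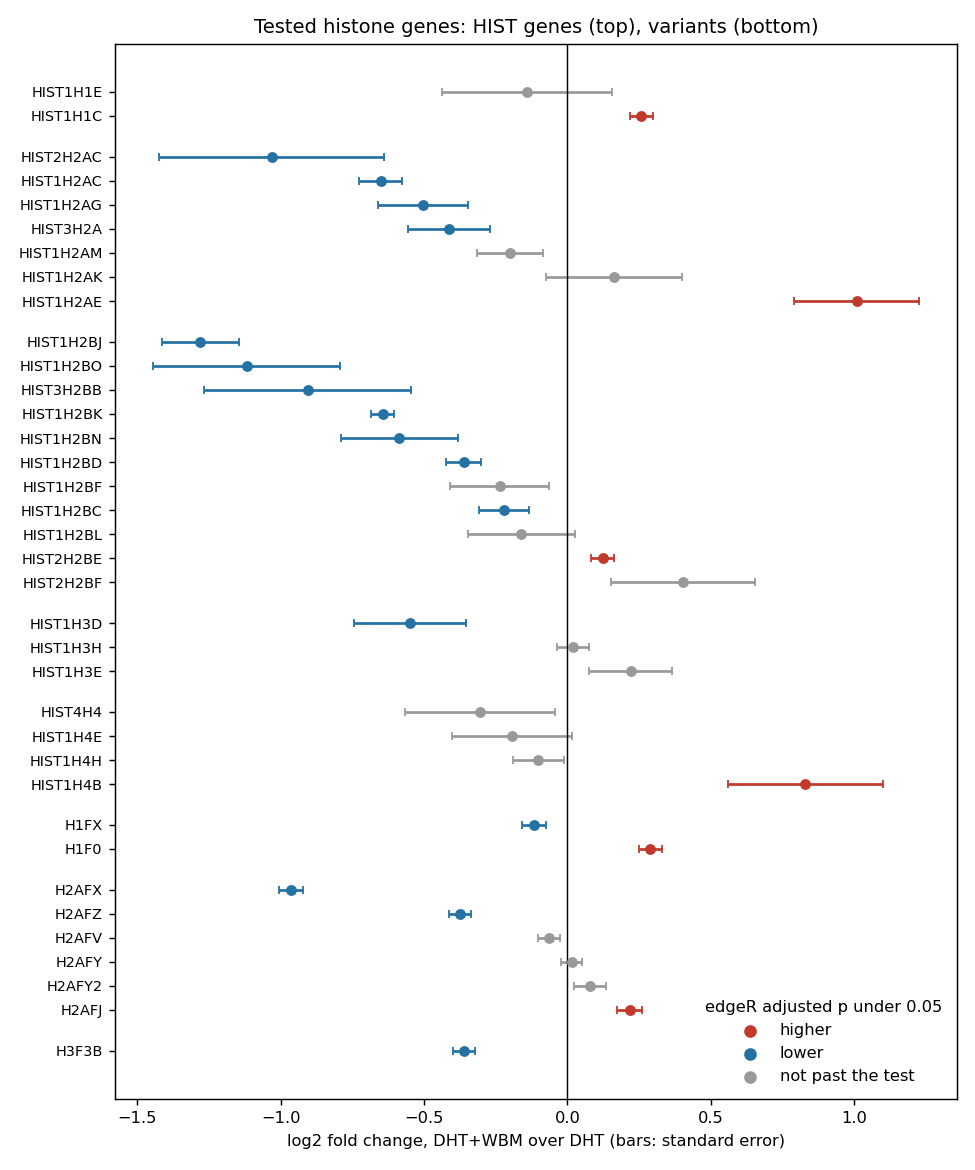
Log2 fold change of DHT+WBM over DHT with its standard error for the 36 tested histone genes, HIST genes above and variants below, grouped by histone class and coloured by the edgeR call. H2A and H2B genes of the HIST class run from -1.28 to 1.01, and H2AFX is the lowest of the variants at -0.96.

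Of the 3 abundant linker histone genes, HIST1H1C and H1F0 were higher and H1FX was slightly lower. HIST1H1C (chromosome 6, 26055968 to 26056699, minus strand, hg19), which encodes a common somatic H1, had 185, 185 and 182 CPM in DHT+WBM libraries, against 151, 148 and 161 CPM in DHT libraries. All its DHT+WBM libraries lay above all DHT libraries, and its log2 fold change was 0.26 ± 0.04 (SE; adjusted p by edgeR, 8.73e-07). H1F0 (chromosome 22, 38201114 to 38203443, plus strand), which encodes the H1 variant that accumulates in differentiated and non-dividing cells, had 236, 248 and 239 CPM in DHT+WBM libraries, against 190.4, 199.8 and 201 CPM in DHT libraries. It too did not overlap between groups, with a log2 fold change of 0.29 ± 0.04 (SE; adjusted p by edgeR, 4.80e-08). H1FX (chromosome 3, 129033614 to 129035120, minus strand), a replication-independent H1 variant, went the other way with 187, 178 and 192 CPM in DHT+WBM libraries, against 196, 194 and 213 CPM in DHT libraries.

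The fall of H1FX was small, at -0.12 ± 0.04 (SE; adjusted p by edgeR, 0.0169), and the call was lost under upper-quartile factors and under library totals alone, with edgeR adjusted p of 0.0845 and 0.148. Leaving out DHT replicate 3 or DHT+WBM replicate 2 ended it too, with edgeR adjusted p of 0.144 and 0.0972. Its antisense RNA H1FX-AS1, on the opposite strand with a span that overlaps the 5′ end of H1FX by a few bases, had 0.829, 1.03 and 0.553 CPM in DHT+WBM libraries, against 1.43, 1.71 and 1.61 CPM in DHT libraries, and was lower, at -0.99 ± 0.26 (SE; adjusted p by edgeR, 0.00112). The strand setting of the counting is not given in the sources used here, so reads of the overlap cannot be told apart. HIST1H1E, another somatic H1 gene, was near the detection limit with 1.07, 0.873 and 0.553 CPM in DHT+WBM libraries, against 1.00, 0.654 and 1.07 CPM in DHT libraries, and did not pass the test. Summed over both kinds, H1 genes took 612 ± 2.61 CPM in DHT+WBM and 554 ± 20.7 CPM in DHT (SD, n = 3). HIST1H1D, H1FNT and H1FOO, the last 2 known from the male and female germ line, had no count.

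HIST1H1B had 3, 3 and 4 counts in DHT+WBM libraries, against 10, 17 and 10 counts in DHT libraries. This S-phase H1 gene did not pass the count filter, and the groups did not overlap. Without a filter its log2 fold change was -1.87 ± 0.51 (SE, edgeR adjusted p = 0.000976). H1 genes thus moved in both directions.

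Core histone H2A showed the largest change among variants. H2AFX (chromosome 11, 118964585 to 118966177, minus strand), whose product H2A.X is phosphorylated at DNA breaks and whose gene, like HIST genes, carries the stem-loop shown above, had 88.6, 82.3 and 87.8 CPM in DHT+WBM libraries, against 171, 164 and 171 CPM in DHT libraries. The highest DHT+WBM library was far below the lowest DHT library, and the log2 fold change was -0.96 ± 0.04 (SE; adjusted p by edgeR, 1.76e-21), or 1.95-fold lower. H2AFZ (chromosome 4, 100869243 to 100871512, minus strand), the gene of H2A.Z, a variant found at promoters, had 382, 395 and 399 CPM in DHT+WBM libraries, against 487, 526 and 511 CPM in DHT libraries, without overlap, a log2 fold change of -0.37 ± 0.04 (SE; adjusted p by edgeR, 1.30e-10). Its close relative H2AFV, which encodes another H2A.Z protein, had 186, 187 and 191 CPM in DHT+WBM libraries, against 194, 202 and 192 CPM in DHT libraries. That log2 fold change was -0.06 ± 0.04 and did not pass the test (edgeR adjusted p = 0.162), although the groups did not overlap.

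H2AFJ (chromosome 12, 14927270 to 14930936, plus strand), an H2A variant that accumulates in senescent cells with DNA damage, was the H2A variant that was higher. It had 206, 188 and 199 CPM in DHT+WBM libraries, against 169, 163 and 179.5 CPM in DHT libraries, with no overlap and a log2 fold change of 0.22 ± 0.04 (SE; adjusted p by edgeR, 3.56e-05). The macroH2A genes, whose products carry a large extra domain and mark silent chromatin, did not pass the test. H2AFY had 432, 431 and 437 CPM in DHT+WBM libraries, against 427, 428 and 431 CPM in DHT libraries, a log2 fold change of 0.02 ± 0.04, and its span overlaps C5orf66. H2AFY2 had 37.2, 34.9 and 35.5 CPM in DHT+WBM libraries, against 35.2, 33.8 and 32.9 CPM in DHT libraries, a log2 fold change of 0.08 ± 0.06, and its span overlaps AIFM2. For both the groups overlapped. H2AFB3, a testis variant, had no count.

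**Figure D3:**
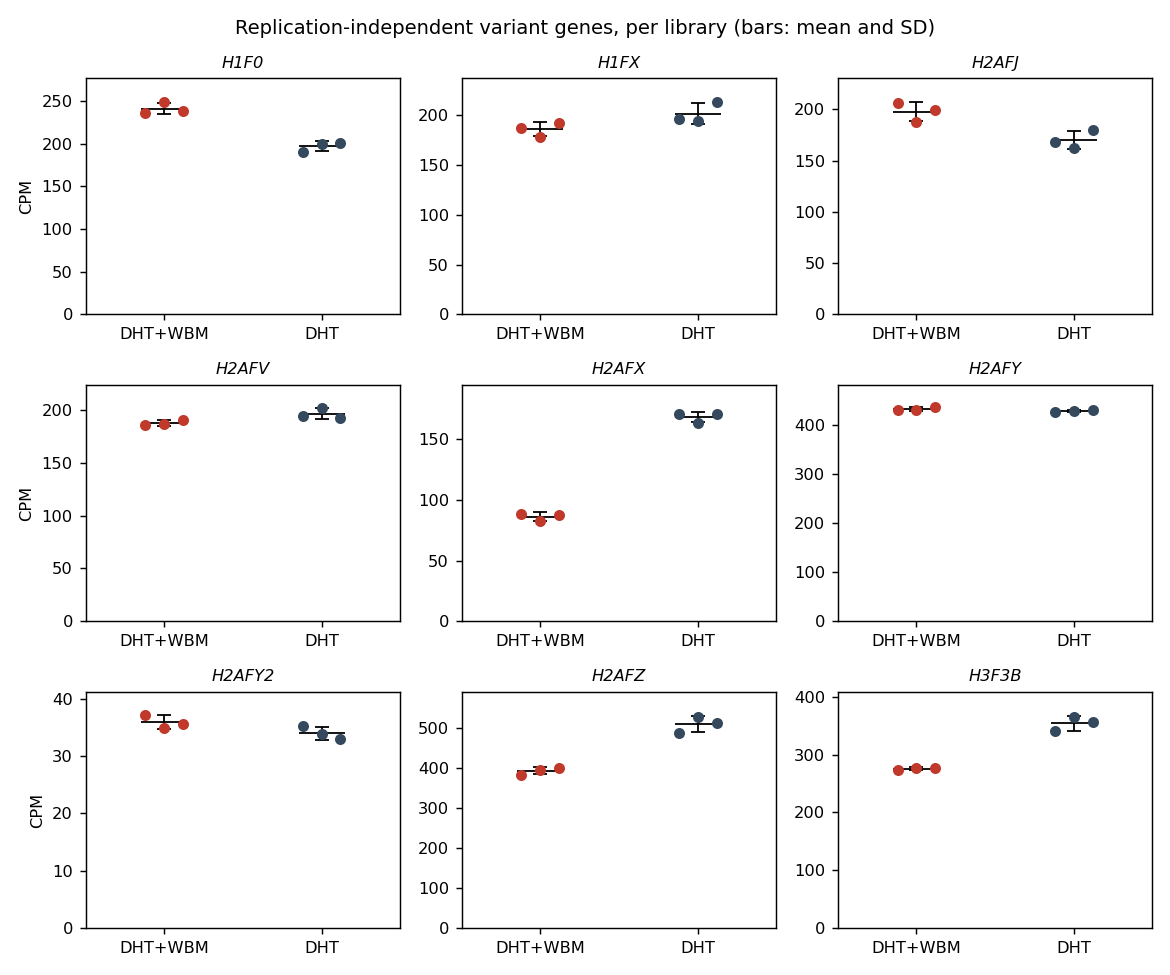
Level of the 9 tested variant genes in CPM, 1 panel per gene with its own axis from 0, with 3 DHT+WBM libraries left and 3 DHT libraries right, and bars for mean and SD. H2AFX, H2AFZ and H3F3B sit lower and H1F0 and H2AFJ higher in DHT+WBM without overlap, while H2AFY and H2AFY2 overlap.

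HIST genes of the H2A family took 28.8 ± 1.32 CPM in DHT+WBM and 38.7 ± 0.99 CPM in DHT (SD, n = 3), far below the 1333 and 1505 CPM of the H2A variants. Of 15 HIST H2A genes 7 were tested. Of these 4 were lower (57.1%, beside 29% of all tested genes), 1 higher (14.3%, beside 29.2%) and 2 did not pass. HIST1H2AC (chromosome 6, 26124373 to 26124918, plus strand), the most abundant of them per kb, had 13.2, 12.3 and 13.4 CPM in DHT+WBM libraries, against 21.5, 19.3 and 20.2 CPM in DHT libraries, without overlap, and a log2 fold change of -0.65 ± 0.08 (SE; adjusted p by edgeR, 1.74e-09). HIST1H2AG had 2.39, 2.41 and 2.90 CPM in DHT+WBM libraries, against 3.82, 3.88 and 3.27 CPM in DHT libraries, a log2 fold change of -0.50 ± 0.16 (SE; adjusted p by edgeR, 0.00568).

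HIST1H2AE (chromosome 6, 26217148 to 26217711, plus strand) ran against this direction. It had 1.85, 2.21 and 2.35 CPM in DHT+WBM libraries, against 1.24, 0.906 and 1.02 CPM in DHT libraries, with all DHT+WBM libraries above all DHT libraries and a log2 fold change of 1.01 ± 0.22 (SE; adjusted p by edgeR, 1.50e-04). HIST3H2A and HIST2H2AC, like HIST1H2AC and HIST1H2AG, were lower, with log2 fold changes of -0.41 ± 0.14 and -1.03 ± 0.39. The HIST3H2A call ended when DHT replicate 3 or DHT+WBM replicate 2 was left out, with edgeR adjusted p of 0.0991 and 0.078. The HIST2H2AC call, from 5 to 15 counts per library, was lost without each of 4 libraries in turn, DHT replicates 1 and 3 and DHT+WBM replicates 2 and 3, where its log2 fold change was -0.86 to -1.0. HIST1H2AM and HIST1H2AK did not pass, with log2 fold changes of -0.20 ± 0.11 and 0.16 ± 0.24.

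H2B was the family with the most HIST reads, the most tested HIST genes and the most lower calls. Its 18 genes summed to 387 ± 4.33 CPM in DHT+WBM and 462 ± 19.0 CPM in DHT (SD, n = 3). Of 11 tested, 7 were lower (63.6%, beside 29% of all tested genes), 1 was higher (9.09%, beside 29.2%) and 3 did not pass. The share lower was near the 57.1% of the tested HIST H2A genes. HIST1H2BK (chromosome 6, 27106072 to 27114637, minus strand), an H2B gene known to give polyadenylated mRNA, had 136, 132 and 139.7 CPM in DHT+WBM libraries, against 204, 212 and 221 CPM in DHT libraries. The groups were far apart, and the log2 fold change was -0.64 ± 0.04 (SE; adjusted p by edgeR, 1.24e-16), or 1.56-fold lower. Its span overlaps that of HIST1H4I. HIST2H2BE (chromosome 1, 149856010 to 149858232, minus strand), also known for polyadenylated mRNA, had 207, 201 and 197 CPM in DHT+WBM libraries, against 179, 181 and 195 CPM in DHT libraries. Its span lies within those listed for LOC100132062 and LOC100133331.

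HIST2H2BE was thus slightly higher without overlap, at 0.12 ± 0.04 (SE; adjusted p by edgeR, 0.00858), and its call was lost without DHT+WBM replicate 1, at 0.10 (edgeR adjusted p = 0.0909). The 2 most abundant H2B genes therefore moved in opposite directions. HIST1H2BD had 26.5, 28.5 and 26.1 CPM in DHT+WBM libraries, against 32.8, 34.7 and 36.5 CPM in DHT libraries, without overlap, a log2 fold change of -0.36 ± 0.06 (SE; adjusted p by edgeR, 3.15e-06). HIST1H2BC had 9.60, 10.6 and 11.5 CPM in DHT+WBM libraries, against 11.8, 12.7 and 12.4 CPM in DHT libraries, a log2 fold change of -0.22 ± 0.09 (SE; adjusted p by edgeR, 0.0281). The HIST1H2BC call ended when DHT replicate 2, DHT replicate 3 or DHT+WBM replicate 1 was left out, with edgeR adjusted p of 0.072, 0.056 and 0.148. It was also lost under upper-quartile factors and library totals.

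**Figure D4:**
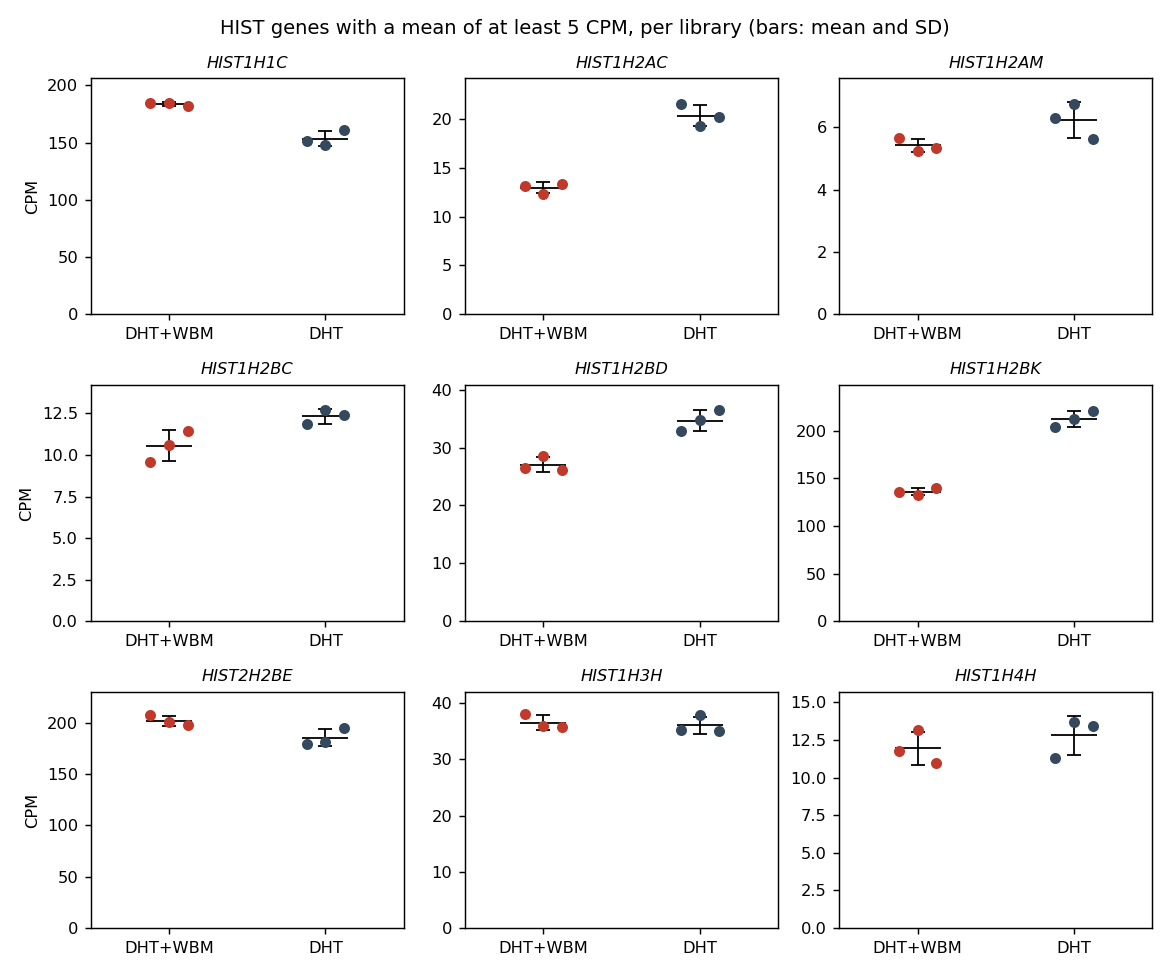
Level of the 9 HIST genes with a mean of at least 5 CPM, in CPM, 1 panel per gene with its own axis from 0, with 3 DHT+WBM libraries left and 3 DHT libraries right, and bars for mean and SD. HIST1H2AC, HIST1H2BK and HIST1H2BD sit clearly lower in DHT+WBM, HIST1H1C higher, and HIST1H3H and HIST1H4H overlap.

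HIST1H2BJ (chromosome 6, 27100095 to 27100575, minus strand), a scarcer H2B gene, showed the largest fall among the tested HIST and variant genes. It had 3.51, 2.52 and 2.58 CPM in DHT+WBM libraries, against 6.93, 6.54 and 7.46 CPM in DHT libraries, without overlap, and a log2 fold change of -1.28 ± 0.13 (SE; adjusted p by edgeR, 1.82e-10), or 2.43-fold lower. HIST1H2BO, HIST3H2BB and HIST1H2BN were lower too, with log2 fold changes of -1.12 ± 0.33, -0.91 ± 0.36 and -0.59 ± 0.20. HIST1H2BO averaged 0.469 CPM in DHT+WBM and 1.03 CPM in DHT, HIST3H2BB 0.387 and 0.738 CPM, and HIST1H2BN 1.42 and 2.12 CPM. The HIST1H2BO call held with each library left out. The HIST3H2BB call ended when DHT replicate 2 or either of DHT+WBM replicates 1 and 2 was left out, with edgeR adjusted p of 0.194, 0.0924 and 0.0778. The HIST1H2BN call ended when DHT replicate 3 or DHT+WBM replicate 1 was left out, with edgeR adjusted p of 0.0704 and 0.057. HIST1H2BF, HIST1H2BL and HIST2H2BF did not pass, at -0.24 ± 0.17, -0.16 ± 0.19 and 0.40 ± 0.25. The pseudogene HIST2H2BC, with 14 to 26 counts per library, was lower, at -0.61 ± 0.26 (edgeR adjusted p = 0.0446). That call was lost without either of DHT+WBM replicates 2 and 3 and without any 1 DHT library, with edgeR adjusted p of 0.0642 to 0.19. It was also lost under upper-quartile factors, library totals, DESeq2 and no count filter.

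Histone H3 reads came mainly from a variant. H3F3B (chromosome 17, 73772515 to 73775860, minus strand), which encodes the replacement variant H3.3 deposited outside replication, had 273, 278 and 276 CPM in DHT+WBM libraries, against 339.9, 365 and 357 CPM in DHT libraries, without overlap, a log2 fold change of -0.36 ± 0.04 (SE; adjusted p by edgeR, 2.39e-10). H3F3A, which encodes the same protein, had 4, 4 and 0 counts in DHT+WBM libraries, against 5, 7 and 3 counts in DHT libraries. Its span holds that of the pseudogene H3F3AP4, so counting could have set reads of the overlap aside, and no level of H3F3A can be taken from these counts. H3F3C, a retrogene copy, had 9, 7 and 8 counts in DHT+WBM libraries, against 5, 2 and 6 counts in DHT libraries, and did not pass the filter.

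HIST genes of the H3 family summed to 42.8 ± 1.15 CPM in DHT+WBM and 43.3 ± 0.93 CPM in DHT (SD, n = 3). HIST1H3H (chromosome 6, 27775977 to 27778314, plus strand), the most abundant, took 84.4% of that sum. It had 38.0, 36.0 and 35.7 CPM in DHT+WBM libraries, against 35.2, 37.9 and 35.2 CPM in DHT libraries, with overlapping groups and a log2 fold change of 0.02 ± 0.06 (SE; adjusted p by edgeR, 0.771). HIST1H3E did not pass, at 0.22 ± 0.14, and HIST1H3D was lower, at -0.55 ± 0.20. The HIST1H3D call was lost without DHT+WBM replicate 3 (edgeR adjusted p = 0.061), and its span contains that of HIST1H2AD. The remaining H3 genes were near 0.

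HIST1H3B had 4, 5 and 3 counts in DHT+WBM libraries, against 9, 19 and 16 counts in DHT libraries. HIST1H3A had 2, 1 and 1 counts in DHT+WBM libraries, against 6 counts in each DHT library. Neither passed the count filter, and without a filter their log2 fold changes were -1.86 ± 0.47 and -2.09 ± 0.78 (SE, edgeR adjusted p = 0.000244 and 0.0192). HIST1H3J had 1, 3 and 6 counts in DHT+WBM libraries, against 9, 8 and 8 counts in DHT libraries, with an adjusted p of 0.0515 in that edgeR fit. Over all 28 HIST genes with counts that did not pass the filter, the groups did not overlap in 5, beside 12.7% of the 5197 genes of the whole table that had counts and did not pass. Lower counts without overlap were found in 5.46% of those 5197 genes. The 5 HIST genes are HIST1H1B, HIST1H3A, HIST1H3B, HIST1H3J and HIST1H4A, each with lower counts in DHT+WBM. Summed over the libraries of each group, counts of the 28 genes were lower in DHT+WBM for 16, higher for 11 and equal for 1. The 39 untested HIST genes together took 3.40 ± 0.50 CPM in DHT+WBM and 5.13 ± 0.62 CPM in DHT (SD, n = 3). The untested H2B genes among them went the other way, at 0.754 CPM in DHT+WBM and 0.521 CPM in DHT.

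H4 genes, which have no variant class here, summed to 17.0 ± 1.79 CPM in DHT+WBM and 17.9 ± 1.46 CPM in DHT (SD, n = 3). HIST1H4H (chromosome 6, 26285354 to 26285727, minus strand) took 71% of it, with 11.7, 13.1 and 11.0 CPM in DHT+WBM libraries, against 11.3, 13.7 and 13.4 CPM in DHT libraries. Its groups overlapped and it did not pass the test, at -0.10 ± 0.09 (SE; adjusted p by edgeR, 0.334). HIST1H4B was higher, with 1.17, 1.39 and 1.29 CPM in DHT+WBM libraries, against 0.573, 0.654 and 0.927 CPM in DHT libraries, no overlap and a log2 fold change of 0.83 ± 0.27 (SE; adjusted p by edgeR, 0.00858). That call, from 12 to 28 counts per library, was lost under DESeq2. It was also lost without DHT replicate 1, at 0.69 (edgeR adjusted p = 0.0502). HIST1H4E and HIST4H4 did not pass, at -0.19 ± 0.21 and -0.30 ± 0.26.

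Many H2A and H2B genes sit head to head, and neighbours in such pairs did not always move alike. In the deposited coordinates 13 pairs of HIST genes started on opposite strands within 1000 bases of each other, 224 to 347 bases apart, and in 8 pairs both members were tested. Both members were lower in 3 pairs, HIST1H2BC with HIST1H2AC, HIST1H2BJ with HIST1H2AG, and HIST3H2A with HIST3H2BB. In 1 pair the calls were opposite, with HIST2H2BE higher and HIST2H2AC lower. Of the 8 pairs, 5 had fold changes of the same sign. HIST1H2AE, the higher H2A gene, is paired with HIST1H2BG, which had 7, 3 and 11 counts in DHT+WBM libraries, against 3, 4 and 8 counts in DHT libraries and was not tested. The genes of a pair share the stretch between their starts.

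**Figure D5:**
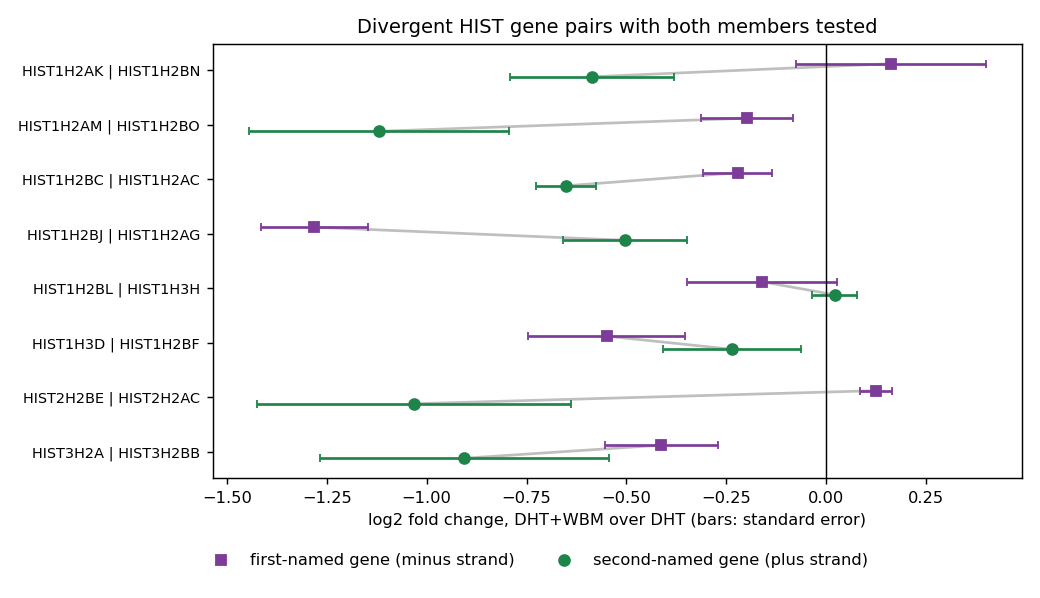
Log2 fold change of DHT+WBM over DHT with its standard error for both genes of the 8 divergent HIST pairs with both members tested, squares for the minus-strand gene and circles for the plus-strand gene. The pair of HIST1H2BJ and HIST1H2AG lies wholly below 0, while HIST2H2BE and HIST2H2AC lie on opposite sides.

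Promoters of genes that moved together or apart are shown with their motifs, from RefSeq (GRCh38.p14), which gave a window from 250 bases before to 50 after the start for 73 of the 85 members. The CCAAT box, the TATA box as TATAAA, and the octamer known from H2B promoters as ATTTGCAT were searched on both strands and are in capitals. A TATAAA match can overlap one on the other strand.
HIST1H2BJ: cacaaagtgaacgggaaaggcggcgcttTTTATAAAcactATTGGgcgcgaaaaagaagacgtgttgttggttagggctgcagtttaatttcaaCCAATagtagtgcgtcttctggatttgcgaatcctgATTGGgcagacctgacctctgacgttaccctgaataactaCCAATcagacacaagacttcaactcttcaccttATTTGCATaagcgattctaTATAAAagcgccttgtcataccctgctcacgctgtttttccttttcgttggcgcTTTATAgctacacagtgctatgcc
HIST1H2BK: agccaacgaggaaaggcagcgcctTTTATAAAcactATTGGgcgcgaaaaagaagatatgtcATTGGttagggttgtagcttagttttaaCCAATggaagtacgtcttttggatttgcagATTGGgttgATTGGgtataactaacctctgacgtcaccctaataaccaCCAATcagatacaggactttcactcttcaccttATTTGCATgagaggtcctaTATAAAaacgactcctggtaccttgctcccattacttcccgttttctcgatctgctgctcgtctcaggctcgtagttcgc
HIST1H1C: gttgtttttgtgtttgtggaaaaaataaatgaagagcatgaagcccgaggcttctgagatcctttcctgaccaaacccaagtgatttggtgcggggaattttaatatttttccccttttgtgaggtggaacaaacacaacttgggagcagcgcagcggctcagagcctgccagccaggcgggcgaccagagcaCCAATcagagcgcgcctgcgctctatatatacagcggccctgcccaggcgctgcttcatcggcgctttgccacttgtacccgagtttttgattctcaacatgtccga
H2AFX: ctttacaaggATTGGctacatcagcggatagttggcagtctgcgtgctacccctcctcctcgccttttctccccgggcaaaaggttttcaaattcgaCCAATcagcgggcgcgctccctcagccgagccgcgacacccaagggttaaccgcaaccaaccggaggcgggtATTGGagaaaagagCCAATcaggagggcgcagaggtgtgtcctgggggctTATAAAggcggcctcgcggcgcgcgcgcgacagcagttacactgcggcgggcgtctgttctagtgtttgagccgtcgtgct
The windows are chr6:27132746-27133045, minus strand, for HIST1H2BJ, chr6:27146806-27147105, minus strand, for HIST1H2BK, chr6:26056421-26056720, minus strand, for HIST1H1C, and chr11:119095416-119095715, minus strand, for H2AFX. HIST1H2BJ and HIST1H2BK, both lower, hold all 3 motifs, HIST1H1C, which was higher, holds CCAAT alone of the 3, and H2AFX holds CCAAT and TATAAA. The windows of HIST1H2AE and HIST2H2BE, which were higher, also hold all 3. Those of HIST1H2BN, HIST3H2A and HIST3H2BB, which were lower, hold CCAAT alone, like that of HIST1H1C. Whether the motifs go with direction was not tested. A member gene was counted where any of its windows held the motif, while the windows of all genes were counted singly. The units thus differ, which favours members with more than 1 window. CCAAT was present in 85.2% of 61 HIST genes and 83.3% of 12 variant genes, beside 34.6% of all 35116 promoter windows. TATAAA was present in 67.2% of HIST and 33.3% of variant genes, beside 11.5% of all windows. The octamer was present in 78.6% of H2A and 77.8% of H2B genes of the HIST class, beside 1.77% of all windows. Both genes of a divergent pair read the same stretch. Of the 12 H4 genes CCAAT was found in 25%.

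Genes that make and handle histones were more often lower than higher. Of 33 tested genes of histone mRNA transcription, processing and decay, 18 were lower (54.5%, beside 29% of all tested genes). Another 2 were higher (6.06%, beside 29.2%) and 13 did not pass, and the median log2 fold change was -0.16. SLBP, which binds the stem-loop, had 51.8, 51.3 and 49.0 CPM in DHT+WBM libraries, against 69.7, 75.8 and 72.1 CPM in DHT libraries, a log2 fold change of -0.52 ± 0.05 (SE; adjusted p by edgeR, 1.06e-11). NPAT, the coactivator of HIST genes, had 47.9, 52.3 and 48.9 CPM in DHT+WBM libraries, against 58.5, 58.9 and 50.9 CPM in DHT libraries, a log2 fold change of -0.18 with overlapping groups. CDK2 and its partner CCNE2, which activate NPAT, had log2 fold changes of -0.69 and -1.27. SNRPB, which encodes a core protein of small nuclear ribonucleoproteins, had one of -0.36. The 2 higher genes were LSM10, part of the U7 particle that cuts histone pre-mRNA, at 0.20, and the exonuclease gene XRN1, at 0.28. Scaled by library totals alone, 13 genes of the list were lower and 3 higher.

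Of 38 tested chaperone and exchange genes, 24 were lower (63.2%, beside 29% of all tested genes). Another 3 were higher (7.89%, beside 29.2%) and 11 did not pass, and the median log2 fold change was -0.21. The replication-coupled H3-H4 chaperone gene ASF1B had a log2 fold change of -1.0, MCM2, a helicase subunit that binds H3-H4, of -1.18, MMS22L, which handles new histones at forks, of -0.94, and the nucleolar chaperone gene NPM1 of -0.56. The 3 higher genes were DAXX and ATRX, which together deposit H3.3, at 0.39 and 0.25, and ZNHIT1, a subunit of the H2A.Z exchange complex, at 0.21. The number of higher genes was 5 under upper-quartile factors and 6 under library totals. CENPA, the centromeric H3 variant outside the symbol rule, had 6.87, 6.16 and 7.14 CPM in DHT+WBM libraries, against 15.8, 18.5 and 16.3 CPM in DHT libraries, a log2 fold change of -1.32 ± 0.09 (SE; adjusted p by edgeR, 2.11e-15). Of 25 genes that act in S phase, all 25 were lower (100%, beside 29% of all tested genes). Their median log2 fold change was -0.91, with PCNA at -0.60 and RRM2 at -1.08 as examples. Under library totals, and without DHT+WBM replicate 2, 24 of them were lower. That list also holds MCM2 of the chaperone list and CCNE1 and CCNE2 of the mRNA processing list. The part of that shift in the histone values was not tested.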

How the data were processed

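RNA-seq counts per gene were analysed for 6 LNCaP libraries, 3 per group. The deposited table holds raw read counts for 23354 genes, with hg19 coordinates and gene lengths. The submitters' processing notes name STAR 2.6.0, HTSeq 0.6.0, edgeR 3.28.1 and bcl2fastq 2.18.0.12, without roles. Neither the annotation nor a strand setting for counting is given in the sources used here.

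Counts were tested in R 4.3.3 with edgeR 4.0.16 (TMM factors, filterByExpr with a minimum count of 10 and total of 15, quasi-likelihood F-test, two-sided). P-values were adjusted by Benjamini-Hochberg over 13466 genes, with 0.05 as the threshold. Standard errors are the log2 fold change over the square root of F. Levels are CPM with TMM factors, given as mean ± SD. DESeq2 1.42.0 and other settings were alternatives. The fit was tested on simulated data. Common variation between libraries was 3.39%, and no 2 libraries of a group agreed within sampling noise.

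The members and lists were chosen with earlier results of these data known. Any tested member could be named. Values per library were to be given for members of at least 5 CPM past the test without overlap, which include HIST1H2BC and HIST2H2BE. They were also to be given for the most abundant HIST gene per kb of each class and each tested variant. Those of scarcer members and of untested genes, where the rule did not ask for them, were added after their values were seen. In the other lists, SLBP, NPAT, CENPA and up to 4 genes of smallest adjusted p were named, and PCNA, RRM2 and the higher genes after their values were seen.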

Additional observations from a re-analysis of the deposited data

How the results depend on the processing

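No histone call reversed under the alternatives run. The calls of H2AFX, H2AFZ, H3F3B, H1F0 and H2AFJ, and of 8 of the 16 called HIST genes, held under each alternative in which the gene was tested. The number of lower HIST genes was 6 under DESeq2 and 6 at an adjusted p under 0.01, and 8 to 12 with 1 library left out, with 8 without DHT replicate 3. Among the 9 HIST genes of at least 5 CPM it was 4 (44.4%), beside 32.5% lower among all genes at that level. Of the same 9 genes 2 were higher (22.2%), beside 29.2%. The log2 ratio of the summed variant level was -0.12 under upper-quartile factors, -0.10 under library totals and -0.0903 without the most abundant member. That of the HIST sum was -0.073 under library totals and -0.22 without the most abundant member. The variant median was -0.0163 under library totals, which moved the median of all genes to 0.05. With 1 library left out, 3 to 4 HIST genes were higher, and 2 variants were higher and 3 to 4 lower. The HIST median then ran between -0.36 and -0.24 and the variant median between -0.08 and -0.04, the HIST sum between -0.14 and -0.09 and the variant sum between -0.17 and -0.14. Over all genes, 3440 to 3791 were then higher and 3642 to 3789 lower. Counting the pseudogene HIST2H2BC as a HIST gene, chosen after seeing the data, gave 13 lower. The cause of these shifts was not tested. The 39 HIST genes that did not pass the filter had at most 56 counts each over the 6 libraries.

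A replicate block gave 4 higher and 12 lower HIST genes, 2 higher and 4 lower variants, and 4079 higher and 4030 lower genes in all. Same-numbered libraries deviated together with correlations of 0.05, 0.04 and 0.02, and DHT+WBM replicate 3 correlated best with DHT replicate 2, so the numbers were not taken to pair the samples.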
